A study of Homo sapiens with 9 samples.

Results

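The cells were HaCaT, a line of immortalized human keratinocytes, and the comparison set 3 libraries of UVA-irradiated cells against 3 libraries of control cells, 6 of the 9 libraries of the series. The UVA cells were covered with phosphate-buffered saline, received 5 J/cm2 of UVA from a lamp and had no plant extract. The control cells were labelled with no treatment, and according to the paper they had the same changes of medium without irradiation. Cells of both groups were wild type by their labels, were grown in DMEM with fetal bovine serum and, as 1 immortalized line, do not stand for the skin of different donors. The other 3 libraries, from cells given UVA and the extract CT, were not compared here. They entered the filter on low counts, the scaling, the mean CPM and the estimate of the spread. With the UVA and control libraries alone, 14680 genes passed the filter. The genes described are all those that passed a filter on low counts, 15154 of the 61311 genes listed, of which 29141 had at least 1 count in some library. The interval between irradiation and harvest of the RNA is not given in the sources used here. Nothing in them says whether the replicates were grown as separate cultures, and a p-value here therefore covers the variation among these libraries and may be technical.

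UVA is the long-wave part of the ultraviolet light that reaches the skin. It is absorbed less by DNA itself than by other molecules of the cell, which pass the energy on to oxygen and so give reactive oxygen species. Keratinocytes are known to answer with signalling from the EGF receptor and the MAP kinases, with AP-1 transcription factors, inflammatory cytokines and the antioxidant factor NRF2, and with arrests of the cell cycle. The irradiated cells were set against control cells gene by gene to find which of these programmes moved, and which others did.

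The UVA libraries held 16390289 to 19527286 counts and the control libraries 17053246 to 19324311. On the first principal component of the 6 libraries, with 37.3% of the variance, the UVA libraries lay at 16.4 to 29.2 and the control libraries at -34.5 to -12.0. The control libraries were spread more widely than the UVA libraries, and in a fixed order for many genes. Control 1 was the control library nearest to the UVA mean for 65.1% of the changed genes, and control 3 the farthest for 64.5%. Keratinocyte markers were plentiful in every library, with 157472 to 201204 counts over 22 genes in UVA cells and 216639 to 224087 in control cells. Markers of other cell types were scarce: 12 fibroblast genes together had 23 to 24 counts in UVA cells and 45 to 66 in control cells, with PDGFRA, PDGFRB, POSTN and DPT at 0, and 10 lymphocyte genes had 1 to 9 counts in UVA cells and 3 to 19 in control cells. In UVA and control cells, 8 melanocyte genes had 35 to 52 and 26 to 47 counts. Sums were larger for 11 macrophage genes, 260 to 362 and 171 to 200, and for 8 endothelial genes, 152 to 173 and 134 to 168. Of these markers CD68 (log2 fold change 0.79) and CDH5 (0.76) were called higher and COL3A1 (-1.51) lower. In bulk RNA, fewer cells of a kind and less RNA per cell cannot be told apart.

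At an adjusted p under 0.05, 1592 genes were higher after UVA, 10.5% of all tested genes, and 1610 were lower, 10.6%, together 21.1%. Most of these changes were small. Among the higher genes 817 rose by less than 1.25-fold and 106 by more than 2-fold, and among the lower genes 807 fell by less than 1.25-fold and 124 by more than 2-fold. The 3 UVA libraries lay wholly above the 3 control libraries for 1556 of the higher genes and wholly below them for 1578 of the lower ones. Over all tested genes, called or not, this held for 18.9% upwards and 19.0% downwards. Most genes named below were chosen by the size of the change or a small adjusted p, and their lack of overlap is largely set by that choice. The share of genes called rose with abundance: with the genes cut into 5 classes of equal size by mean CPM, in the lowest class 2.51% were higher and 2.38% lower, and in the highest 18.7% were higher and 17.9% lower.

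**Figure D1:**
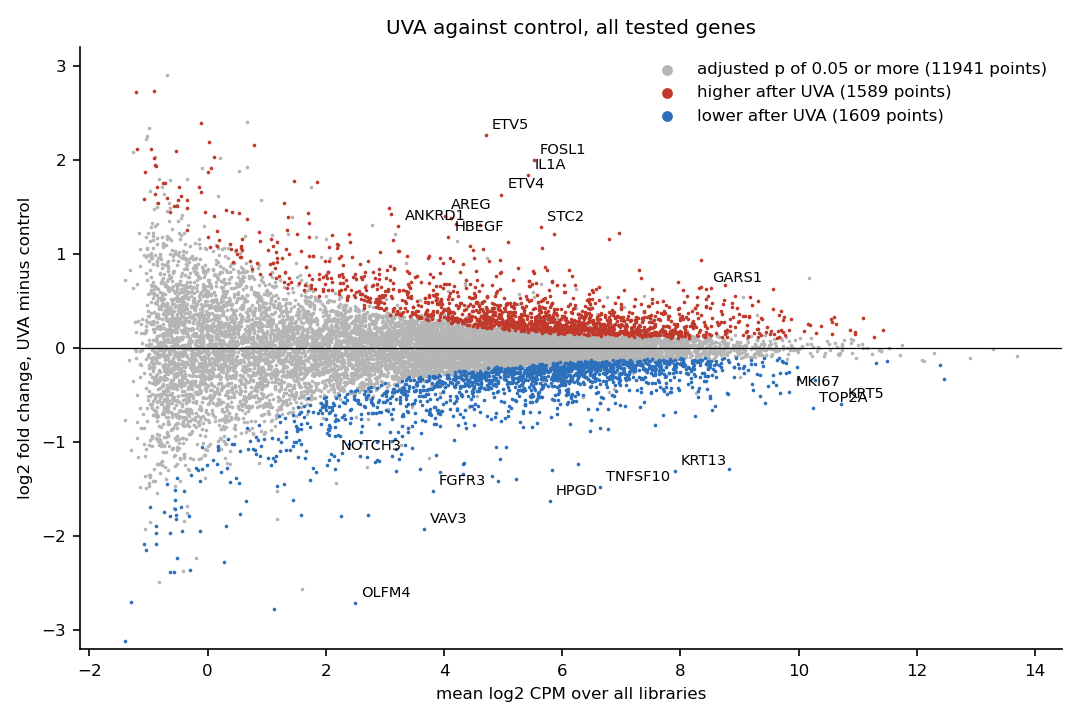
Log2 fold change, UVA minus control, against mean log2 CPM over all libraries, with 1 point for each tested gene. Red points are the genes higher after UVA and blue points the genes lower after UVA at an adjusted p under 0.05, and the 15 genes beyond a log2 fold change of 3.2 in either direction are not drawn. ETV5 (2.26) and OLFM4 (-2.71) are among the largest changes of well expressed genes, while TOP2A (-0.64) and GARS1 (0.63) are abundant genes with moderate changes.

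Described by gene lists, the changes had a clear order. Feedback genes of the ERK pathway, targets of the stress factor ATF4, aminoacyl-tRNA synthetases and genes of ribosome biogenesis were mostly higher after UVA, and genes of mitosis and keratins were mostly lower. The plot of gene lists gives for each list the share of members called, beside the 10.5% and 10.6% of all tested genes. As the share called rose with abundance, these are low marks for lists of abundant genes, and lists were not set against genes of matched abundance. Values of single genes below are CPM, counts scaled by TMM to a common library size, and a log2 fold change (log2FC) is UVA minus control.

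**Figure D2:**
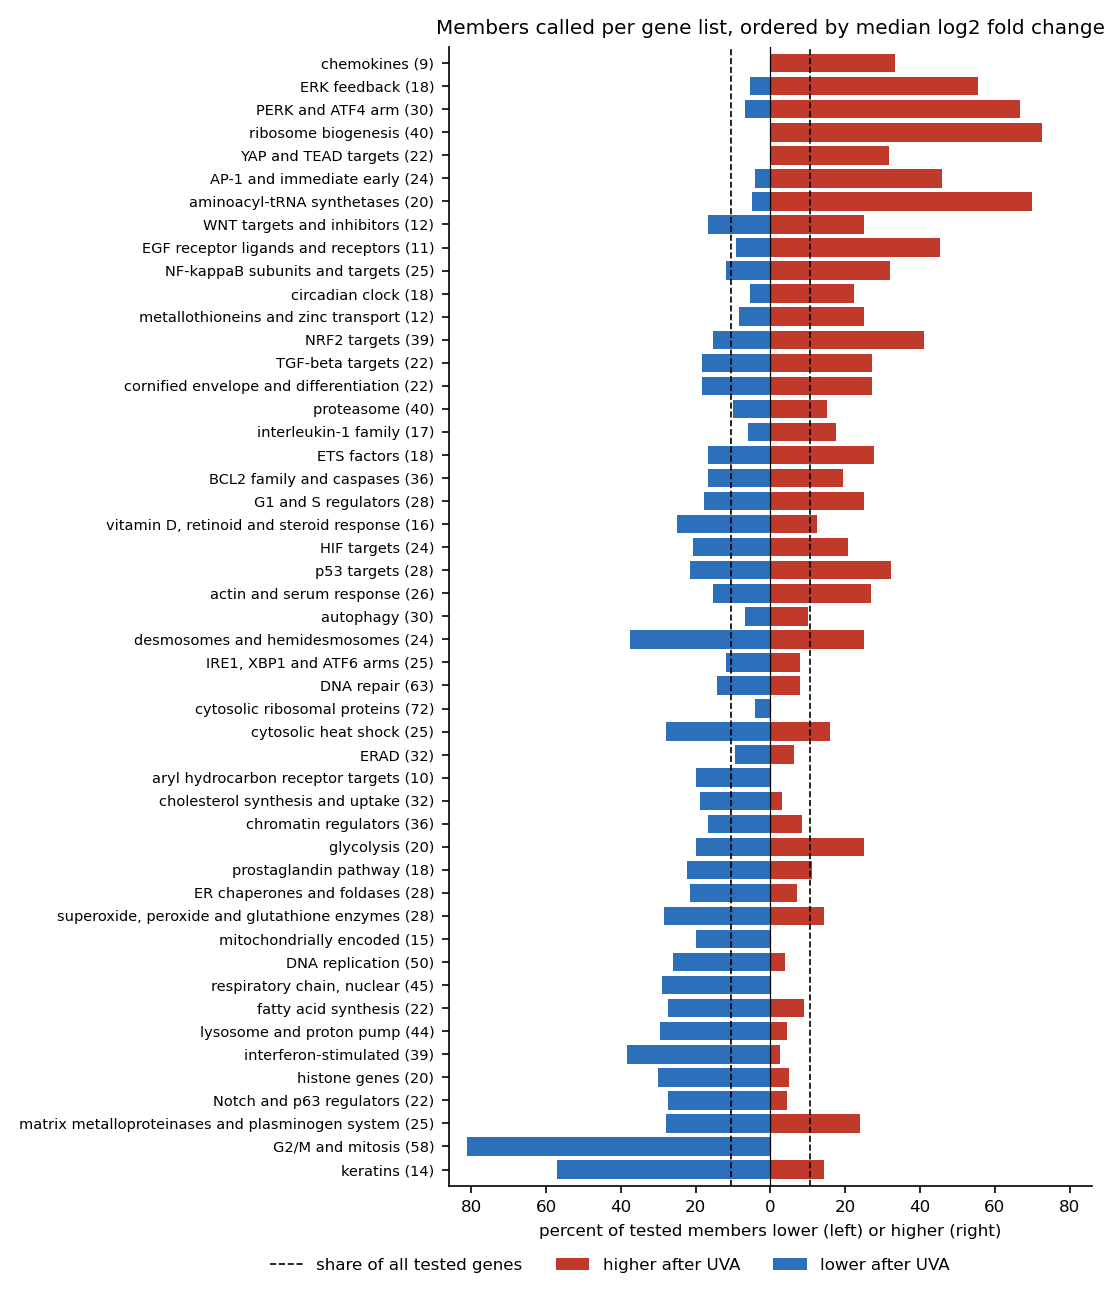
Percent of the tested members of each gene list that were higher (red, to the right) or lower (blue, to the left) after UVA at an adjusted p under 0.05, with the number tested in parentheses and the lists ordered by their median log2 fold change. Lists of cell type markers are not drawn. The dashed lines mark the 10.5% higher and 10.6% lower of all tested genes. Ribosome biogenesis, aminoacyl-tRNA synthetases and the PERK and ATF4 arm reach farthest to the right of the lists drawn, and G2/M and mitosis and the keratins farthest to the left.

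The EGF receptor is opened by ligands that are cut from the cell surface, and its main route to the nucleus runs through the kinase ERK. Of 11 tested genes for receptors and ligands of this family, 5 were higher and 1 was lower. HBEGF, a ligand, had 19.1, 20.03 and 21.2 CPM in UVA cells, against 8.64, 7.52 and 10.5 CPM in control cells (log2FC 1.18, standard error 0.13, adjusted p = 9.87e-06). NRG1, a ligand of the related receptors, had 157, 175 and 191 CPM in UVA cells, against 113, 92.8 and 88.1 CPM in control cells (log2FC 0.83, standard error 0.14, adjusted p = 0.00842). For both genes all UVA libraries lay above all control libraries. AREG, the ligand amphiregulin, had 15.8, 19.2 and 19.2 CPM in UVA cells, against 8.23, 7.03 and 5.05 CPM in control cells (log2FC 1.41, standard error 0.31, adjusted p = 0.0196), and although its groups did not overlap the call was lost without control 2, control 3, UVA 2 or UVA 3 (adjusted p up to 0.0745). TGFA rose by 0.63 and EGFR, the receptor itself, by 0.20 on the log2 scale, whereas ERBB2 fell by 0.21.

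ERK signalling switches on its own brakes, the dual-specificity phosphatases that remove phosphate from MAP kinases and the Sprouty and SPRED proteins that act near RAS. Of 18 tested genes of this kind 10 were higher, with a median log2FC of 0.58 against 0.00 over all genes, and 1 was lower. DUSP4 had 17.2, 17.7 and 20.7 CPM in UVA cells, against 8.49, 7.41 and 5.29 CPM in control cells (log2FC 1.38, standard error 0.18, adjusted p = 0.000279). ERRFI1, which binds and inhibits the EGF receptor, had 33.2, 36.1 and 37.9 CPM in UVA cells, against 20.5, 17.2 and 18.4 CPM in control cells (log2FC 0.93, standard error 0.10, adjusted p = 7.33e-06). IER3, an early gene of growth and stress signals, had 25.8, 29.2 and 28.4 CPM in UVA cells, against 16.2, 16.3 and 11.2 CPM in control cells, and SPRED2 had 50.1, 44.7 and 52.1 CPM in UVA cells, against 34.2, 27.5 and 27.9 CPM in control cells. In all 4 genes the groups were apart, as the rule for the largest rises required of DUSP4, and control 1 was the highest control library in 3 of them. PHLDA1 rose by 0.64. The lower gene was DUSP10 (-0.22), a phosphatase of JNK and p38, named here after its value was seen.

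The largest rises of well expressed genes included the transcription factors that ERK is known to induce. ETV5, of the PEA3 group of ETS factors, had 32.1, 35.8 and 35.7 CPM in UVA cells, against 11.7, 6.11 and 3.41 CPM in control cells (log2FC 2.26, standard error 0.35, adjusted p = 0.00608). ETV4, of the same group, had 39.5, 36.3 and 39.8 CPM in UVA cells, against 15.6, 11.6 and 9.93 CPM in control cells (log2FC 1.63, standard error 0.13, adjusted p = 4.29e-06). Control 1 was the highest control library for both, and still below every UVA library, as the rule for choosing the largest rises required. ETV1, the third member of that group, was expressed at a lower level, with 1.33, 1.95 and 1.38 CPM in UVA cells, against 0.206, 0.541 and 0.117 CPM in control cells (log2FC 2.39, standard error 0.46, adjusted p = 0.000976). Of 18 tested ETS factors 5 were higher, the other two being ELK4 (0.21) and FLI1 (0.30), and 3 were lower, EHF (-0.29) and, named after their values were seen, ELF1 (-0.15) and ELF3 (-0.86), the factors EHF and ELF3 being those typical of epithelia. The calls of ELF1 and ELF3 were lost without control 2, control 3 or any single UVA library (adjusted p up to 0.232 and 0.119), that of ELF1 also by limma-voom and that of ELF3 also with no filter on low counts and in a fit of the UVA and control libraries alone.

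AP-1 is a pair of FOS and JUN family proteins that forms within minutes to hours of a stimulus. Of 24 tested AP-1 and immediate early genes 11 were higher, among them FOSL1, with 43.1, 49.9 and 52.7 CPM in UVA cells, against 18.5, 9.79 and 7.82 CPM in control cells (log2FC 2.00, standard error 0.40, adjusted p = 0.0158). FOSL1 had its highest control value in control 1, and the call was lost without control 2, control 3, UVA 2 or UVA 3 (adjusted p up to 0.0638). MAFF, a small MAF protein that pairs with other factors of this kind, had 21.9, 19.9 and 23.6 CPM in UVA cells, against 8.80, 9.36 and 8.17 CPM in control cells (log2FC 1.31, standard error 0.13, adjusted p = 2.59e-06). ATF3, a stress-induced factor, rose by 0.84, KLF4 by 0.95 and MYC by 0.52 on the log2 scale, while BTG2, an antiproliferative gene, fell by 0.55. The number of higher genes was 5 without control 2, 7 without control 3 and 6 without UVA 3, and that of lower genes 2 without control 1 or with no filter on low counts. Further early and growth-related genes stood among the 15 largest rises: IRS2, an adaptor of the insulin receptor, had 25.8, 31.6 and 31.1 CPM in UVA cells, against 15.4, 9.63 and 10.5 CPM in control cells (log2FC 1.31, standard error 0.15, adjusted p = 0.000133), with control 1 again the highest control library.

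**Figure D3:**
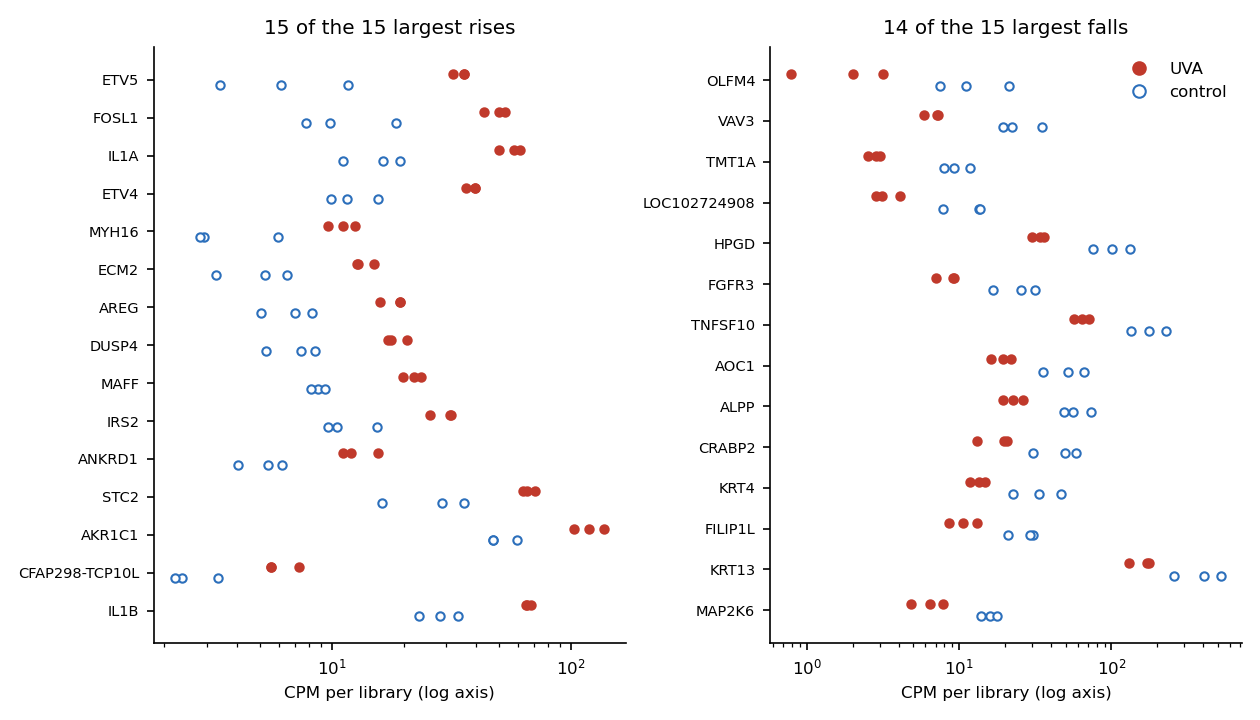
CPM in each library, on a log axis, of the 15 largest rises and of 14 of the 15 largest falls among well expressed genes whose groups did not overlap, with filled points for UVA and open points for control, 3 of each per gene. The gene ENSG00000287856, at 0 in all UVA libraries, is not drawn. No open point lies among the filled ones, as the rule for choosing these genes required, and the open points of ETV5 run from 3.41 to 11.7 CPM.

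ANKRD1, a target of the YAP and TEAD factors that respond to cell shape and growth signals, had 12.1, 15.5 and 11.1 CPM in UVA cells, against 6.17, 5.41 and 4.05 CPM in control cells (log2FC 1.29, standard error 0.23, adjusted p = 0.00213). It was 1 of 7 higher genes among 22 tested targets of these factors, with TGFB2 (0.65) and NT5E (0.82); 0 were lower by edgeR, DESeq2 or limma-voom, and 0 at an unadjusted p under 0.05. Higher targets were 12 without control 1, 12 by DESeq2 and 11 with no filter on low counts. Among 22 targets of TGF-beta 6 rose and 4 fell. The inhibitors of differentiation ID2 (-0.66) and ID3 (-1.24), which block other factors of their kind, and SMAD6 (-0.69), an inhibitor of BMP signalling, were lower. ID1 (-0.82), named after its value was seen, was the other lower gene. Of 12 tested genes of the WNT pathway, CD44 (0.33), CCND1 (0.40) and RNF43 (0.32) were higher and APCDD1 (-1.95), a WNT inhibitor, and LGR4 (-0.16) lower, and the call of RNF43 was lost without control 1, control 3, UVA 1 or UVA 2 (adjusted p up to 0.0946). APCDD1 was expressed at a low level, with 8, 8 and 5 counts in UVA cells, against 15, 34 and 34 counts in control cells. With no filter on low counts 5 genes of this pathway were higher, and with at least 10 counts in each library 1 was lower.

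Interleukin-1 alpha and beta are cytokines that keratinocytes hold ready and release on injury. IL1A had 49.8, 60.8 and 57.6 CPM in UVA cells, against 19.3, 16.3 and 11.2 CPM in control cells (log2FC 1.84, standard error 0.22, adjusted p = 0.00174). IL1B had 64.6, 68.1 and 65.04 CPM in UVA cells, against 33.8, 28.2 and 23.2 CPM in control cells (log2FC 1.21, standard error 0.11, adjusted p = 6.85e-05). NLRP1, the inflammasome sensor of human keratinocytes, had 11.3, 12.7 and 12.6 CPM in UVA cells, against 6.69, 5.52 and 4.17 CPM in control cells (log2FC 1.15, standard error 0.15, adjusted p = 1.92e-05). In these 3 genes every UVA library was above every control library, which the rule for choosing the largest rises required of IL1A and IL1B. They were the 3 higher genes of 17 tested members of the family. CASP1, the protease that activates interleukin-1 beta, was the lower one (log2FC -0.24, standard error 0.08, adjusted p = 0.0439), a call lost without control 2, control 3 or any single UVA library, by DESeq2 and limma-voom, in a fit of the UVA and control libraries alone and at equal depth (adjusted p up to 0.256 without a library). MYD88, the adaptor of the receptors, had a log2FC of -0.15 (adjusted p = 0.145).

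NF-kappaB is the factor through which interleukin-1 acts on other genes. Of 25 of its subunits and targets 8 were higher and 3 lower. RELB had 5.50, 6.45 and 6.49 CPM in UVA cells, against 3.14, 2.81 and 2.47 CPM in control cells (log2FC 1.13, standard error 0.20, adjusted p = 0.000469), and NFKB2, its usual partner, had 44.95, 43.4 and 44.03 CPM in UVA cells, against 25.5, 24.8 and 22.9 CPM in control cells (log2FC 0.85, standard error 0.09, adjusted p = 9.95e-06). BIRC3, an inhibitor of cell death, rose by 0.83 and the cytokine LIF by 0.58. The lower genes, named after their values were seen, were CSF1 (-0.63), REL (-0.50) and IL6R (-0.51). The number of higher genes was 5 without UVA 2, and the call of IL6R was lost without control 2, control 3 or UVA 3 (adjusted p up to 0.134). Of 9 tested chemokines 3 were higher, CCL2 (log2FC 0.82, standard error 0.13, adjusted p = 0.000209), CXCL3 (log2FC 1.91, standard error 0.47, adjusted p = 0.00605) and CXCL16 (0.23), and 0 lower by edgeR, DESeq2 or limma-voom and 0 at an unadjusted p under 0.05. CXCL3 was near the limit of detection, with 21, 11 and 25 counts in UVA cells, against 3, 7 and 5 counts in control cells. The call of CXCL16 was lost without control 1, control 2, control 3, UVA 1 or UVA 3 (adjusted p up to 0.108). Higher chemokines were 5 by DESeq2, 5 in a fit of the UVA and control libraries alone and 6 with no filter on low counts. CXCL8, the neutrophil attractant, had 2.56, 4.02 and 3.48 CPM in UVA cells, against 1.13, 1.24 and 0.646 CPM in control cells (log2FC 1.71, adjusted p = 0.0888), and passed the test under each of those 3 alternatives. IL6 was near the limit of detection, with 0.833, 1.03 and 0.614 CPM in UVA cells, against 0.257, 0.162 and 0.588 CPM in control cells (log2FC 1.30, standard error 0.56, adjusted p = 0.106), and TNF was too low to be tested.

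Prostaglandins are lipid mediators that keratinocytes make after ultraviolet light. HPGD, the enzyme that inactivates them, had 36.1, 30.2 and 33.8 CPM in UVA cells, against 75.2, 101 and 133 CPM in control cells (log2FC -1.62, standard error 0.25, adjusted p = 0.00627), the largest fall in a list of 18 tested genes of which 4 fell and 2 rose. PTGS1, the constitutive cyclooxygenase, was also lower (-0.42), and the call was lost without control 2 or UVA 2 (adjusted p up to 0.0606). ALOXE3, an epidermal lipoxygenase, was expressed at a low level and had 1.22, 1.40 and 1.89 CPM in UVA cells, against 0.463, 0.379 and 0.117 CPM in control cells (log2FC 2.19, standard error 0.44, adjusted p = 0.00147). The list had 2 lower genes without control 2 or UVA 2, and 1 higher gene without UVA 1 or with at least 10 counts in each library.

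Interferon-stimulated genes moved the other way. Of 39 tested 15 were lower and 1 was higher, with a median log2FC of -0.16. PARP9, which acts with its partner DTX3L in interferon signalling, had 86.8, 91.98 and 92.5 CPM in UVA cells, against 117, 130.0 and 141 CPM in control cells (log2FC -0.52, standard error 0.06, adjusted p = 9.02e-06). PARP14 (-0.34) and OAS3 (-0.28) were lower too, and IFIT2 (0.36) was the higher gene. The median of the list in single libraries, relative to the control mean, was -0.23 to -0.16 in UVA cells and -0.10, 0.00 and 0.08 in control 1, 2 and 3. TNFSF10, which encodes the death ligand TRAIL, is also induced by interferons and had 71.2, 56.8 and 63.9 CPM in UVA cells, against 134, 175 and 226 CPM in control cells (log2FC -1.48, standard error 0.28, adjusted p = 0.0123), and the call was lost without UVA 2 or UVA 3 (adjusted p up to 0.0541).

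When the kinase PERK or a related kinase marks the initiation factor eIF2alpha, most translation slows and that of ATF4 rises, and ATF4 then drives genes for amino acid supply and, if stress goes on, the factor CHOP. Of 30 tested genes of this arm 20 were higher and 2 lower, with a median log2FC of 0.34. ATF4 had 401, 393 and 408 CPM in UVA cells, against 297, 274 and 245 CPM in control cells (log2FC 0.56, standard error 0.05, adjusted p = 3.32e-06). DDIT3, which encodes CHOP, had 25.7, 29.4 and 26.9 CPM in UVA cells, against 14.6, 14.5 and 14.98 CPM in control cells (log2FC 0.90, standard error 0.09, adjusted p = 2.52e-06). PPP1R15A, or GADD34, the phosphatase subunit that reverses the mark, had 70.2, 74.8 and 75.7 CPM in UVA cells, against 50.9, 49.5 and 44.95 CPM in control cells (log2FC 0.60, standard error 0.07, adjusted p = 9.95e-06). The 3 genes kept the groups apart in every library.

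Transport and synthesis of amino acids formed much of this arm. SLC7A11, the cystine transporter, had 343, 360.3 and 363 CPM in UVA cells, against 212, 176 and 168 CPM in control cells (log2FC 0.94, standard error 0.07, adjusted p = 7.33e-06). SLC1A5, a glutamine transporter, rose by 0.62 and SESN2, an inhibitor of mTORC1, by 0.56 on the log2 scale. STC2, a secreted glycoprotein and ATF4 target, had 62.6, 70.4 and 65.04 CPM in UVA cells, against 35.6, 28.7 and 16.2 CPM in control cells (log2FC 1.29, standard error 0.24, adjusted p = 0.0121). EIF2AK3, which encodes PERK, was lower (log2FC -0.28, standard error 0.08, adjusted p = 0.0161), and the call was lost without control 3 or UVA 1 (adjusted p up to 0.131). The other lower gene was PHGDH (-0.16) of serine synthesis, named after its value was seen, and the call was lost without control 1, control 2, control 3, UVA 2 or UVA 3 and with scaling by library size only (adjusted p up to 0.164 without a library). EIF2S1, for eIF2alpha itself, had a log2FC of 0.16 (adjusted p = 0.0306), and the call was lost without control 2, control 3, UVA 2 or UVA 3 and by limma-voom (adjusted p up to 0.126 without a library). These are amounts of mRNA, which do not show the mark on eIF2alpha. The paper followed that mark by Western blot and describes it as raised by UVA.

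The other arms of the unfolded protein response, which expand the folding capacity of the ER through IRE1, XBP1 and ATF6, did not share this pattern. Of 25 tested genes 2 were higher and 3 lower. XBP1 had 111, 126 and 121 CPM in UVA cells, against 87.8, 81.5 and 81.97 CPM in control cells (log2FC 0.51, standard error 0.05, adjusted p = 2.59e-06), and counts per gene do not separate its spliced form. ATF6 (log2FC -0.11, adjusted p = 0.116) and ERN1, which encodes IRE1 (0.28, adjusted p = 0.112), did not pass the test. SRPRB (0.21) was the other higher gene, and SEC24D (-0.41), CREB3L2 (-0.29) and CREB3 (-0.33) were the lower ones. The call of SRPRB was lost without control 2, control 3 or any single UVA library and by limma-voom (adjusted p up to 0.131 without a library), and the call of CREB3L2 was lost without control 2 (adjusted p up to 0.0527). Of 28 ER chaperones and foldases 2 were higher and 6 lower. HSPA5, or BiP, the main chaperone of the ER, had 964, 1042 and 1063 CPM in UVA cells, against 794, 860.4 and 832 CPM in control cells (log2FC 0.30, standard error 0.05, adjusted p = 0.000243), while the disulfide isomerases P4HB (-0.18) and PDIA4 (-0.21) were lower. Of 32 genes of ER-associated degradation SELENOS (0.35) and AUP1 (0.16) were higher and NPLOC4 (-0.24), UBXN4 (-0.18) and OS9 (-0.14) lower, and the call of AUP1 was lost when any 1 library was left out, by DESeq2 and limma-voom and with no filter on low counts (adjusted p up to 0.147 without a library). The call of OS9 was lost without control 2, control 3, UVA 2 or UVA 3 (adjusted p up to 0.0717). Of the genes of ER-associated degradation 15.6% were called, below the 21.1% of all tested genes.

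Cytosolic heat shock genes answer misfolded protein outside the ER. Of 25 tested, 7 were lower and 4 higher. HSPB1, an abundant small heat shock protein, had 103, 85.3 and 93.4 CPM in UVA cells, against 117, 145 and 146 CPM in control cells (log2FC -0.53, standard error 0.09, adjusted p = 0.00168). HSPA1B (-0.43), which shares nearly all its sequence with HSPA1A, HSPA4L (-0.61) and DNAJB1 (-0.18) fell, and AHSA1 (0.26), which activates the chaperone HSP90, rose. The number of higher genes was 2 without control 2, control 3, UVA 2 or UVA 3. The proteasome, which degrades such proteins, had 6 higher and 4 lower genes of 40, with PSMB7 (0.22) and POMP (0.22) higher and the immune subunits PSMB9 (-0.28) and PSME1 (-0.19) lower. The higher genes were 3 without control 3 or UVA 3 and the lower ones 2 without control 2, control 3 or UVA 2, and the call of PSMB9 was lost without control 2, control 3 or UVA 2 (adjusted p up to 0.0770).

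Aminoacyl-tRNA synthetases load amino acids onto tRNA, and several are targets of ATF4. Of the 20 cytosolic enzymes tested 14 were higher and 1, QARS1 (-0.19), named after its value was seen, was lower. GARS1, for glycine, had 403, 438 and 417 CPM in UVA cells, against 290.0, 269 and 253 CPM in control cells (log2FC 0.63, standard error 0.05, adjusted p = 1.15e-07), one of the smallest adjusted p of all genes. AARS1, for alanine, had 418, 425 and 429 CPM in UVA cells, against 330.0, 319.7 and 299 CPM in control cells (log2FC 0.42, standard error 0.04, adjusted p = 2.06e-06). CARS1 (0.43), SARS1 (0.30) and NARS1 (0.25) rose as well. The call of QARS1 was lost without control 3 or UVA 2 (adjusted p up to 0.102), and a fit of the UVA and control libraries alone called 2 lower. GARS1 and AARS1 were both steady within each group, and the gap between the groups was wider than the spread within either. Both were among the 10 smallest adjusted p, a choice that favours such genes.

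Ribosomes are built in the nucleolus, where RNA polymerase I makes the ribosomal RNA and assembly factors trim and fold it. Of 40 tested genes for this work 29 were higher, and all 40 had a log2FC above 0, with a median of 0.33. In edgeR 0 were lower, as by DESeq2 and limma-voom and at an unadjusted p under 0.05. GAR1, which belongs to the particles that modify ribosomal RNA, had 52.5, 61.5 and 61.4 CPM in UVA cells, against 44.8, 42.7 and 36.8 CPM in control cells (log2FC 0.49, standard error 0.08, adjusted p = 0.000657). POLR1C, a subunit shared by RNA polymerases I and III, had 31.7, 32.2 and 31.9 CPM in UVA cells, against 25.5, 23.04 and 21.7 CPM in control cells (log2FC 0.45, standard error 0.08, adjusted p = 0.000684). UBTF, the factor that opens ribosomal DNA, rose by 0.36, PES1 by 0.35 and WDR75 by 0.31 on the log2 scale. The medians of this list were 0.29, 0.34 and 0.39 in UVA 1, 2 and 3, against 0.11, 0.01 and -0.14 in control 1, 2 and 3. The number of higher genes was 19 without UVA 3 and 37 at most, without control 1.

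The protein parts of the ribosome changed little beside this. Of 72 tested cytosolic ribosomal protein genes 3 were lower, RPS21 (-0.17), RPS28 (-0.16) and RPL36 (-0.14), and 0 higher by edgeR, DESeq2 or limma-voom, with 3 higher at an unadjusted p under 0.05. The median log2FC was -0.02. All 3 calls were lost without control 2 or UVA 3, that of RPS21 also without control 3, that of RPS28 without control 3 or UVA 2, and that of RPL36 without UVA 1 or UVA 2 and by limma-voom (adjusted p up to 0.0815, 0.115 and 0.224 without a library). RPL3, for example, had 1480.0, 1441 and 1476 CPM in UVA cells, against 1389, 1408 and 1363 CPM in control cells (log2FC 0.08, adjusted p = 0.0977). EEF1A1, the elongation factor and the second most abundant mRNA of these cells, had 9921, 10170.0 and 10220.0 CPM in UVA cells, against 10100.0, 10220.0 and 10280.0 CPM in control cells (log2FC -0.01).

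**Figure D4:**
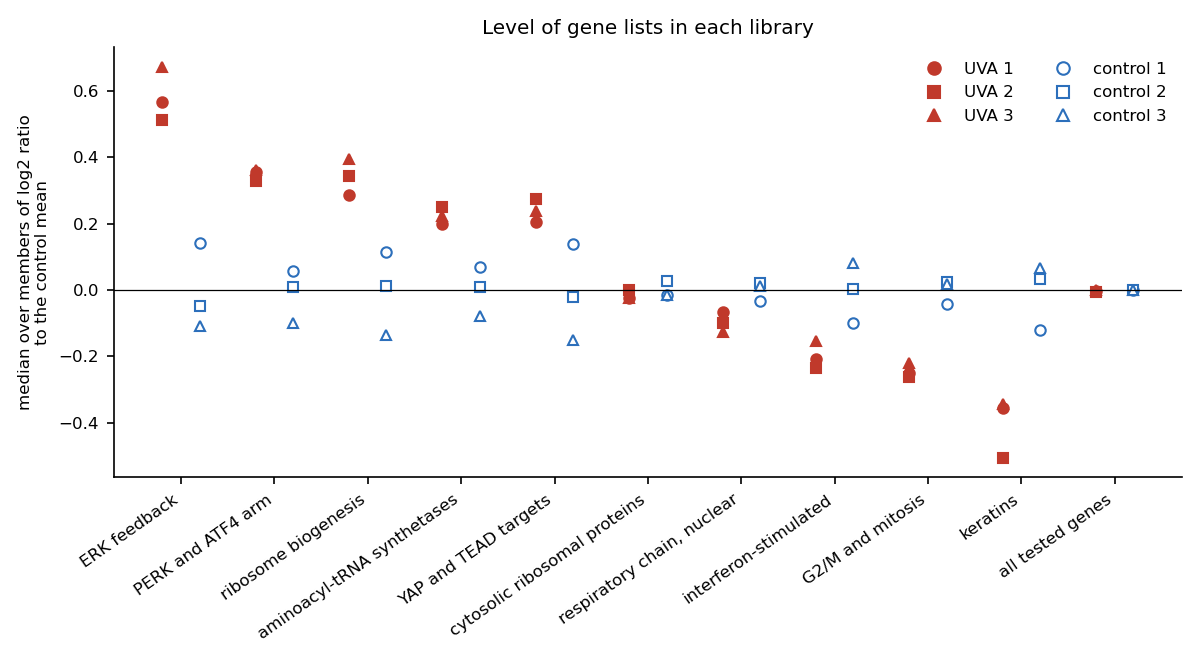
Median over the tested members of a list of the log2 ratio of each library's CPM to the control mean, with filled symbols for UVA 1 to 3 and open symbols for control 1 to 3 of each list. For ribosome biogenesis the UVA libraries lie at 0.29 to 0.39 and the control libraries at -0.14 to 0.11, for G2/M and mitosis the UVA libraries lie at -0.26 to -0.22 and the control libraries at -0.04 to 0.02, and for cytosolic ribosomal proteins the groups overlap. Control 1 is the control library nearest to the UVA libraries in the lists with the largest gaps.

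NRF2 is freed from KEAP1 by oxidants and switches on genes for glutathione, thioredoxin and detoxification. Of 39 tested targets and regulators 16 were higher and 6 lower, with a median log2FC of 0.07. TXNRD1, the thioredoxin reductase, had 375, 405 and 396 CPM in UVA cells, against 285, 269 and 270.5 CPM in control cells (log2FC 0.51, standard error 0.05, adjusted p = 2.52e-06). TXN, thioredoxin itself, had 634, 645 and 649 CPM in UVA cells, against 510.4, 517 and 516 CPM in control cells (log2FC 0.32, standard error 0.04, adjusted p = 2.02e-05). SQSTM1, an autophagy receptor that binds KEAP1, had 529, 516 and 560.0 CPM in UVA cells, against 401, 386 and 407 CPM in control cells (log2FC 0.43, standard error 0.05, adjusted p = 2.51e-05). All 3 were above control in every UVA library. AKR1C1, an aldo-keto reductase, had 103, 119 and 137 CPM in UVA cells, against 47.3, 47.2 and 59.2 CPM in control cells (log2FC 1.23, standard error 0.20, adjusted p = 0.00695), and can share reads with the near-identical AKR1C2. The number of lower genes was 3 without control 2 or UVA 1, 2 without UVA 2 or UVA 3 and 1 without control 3.

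Some familiar genes of the oxidant response did not pass the test. HMOX1, heme oxygenase, was low, with 0.722, 0.304 and 0.511 CPM in UVA cells, against 1.39, 0.649 and 0.588 CPM in control cells (log2FC -0.77, adjusted p = 0.344), and its groups overlapped. NFE2L2, which encodes NRF2, had 262, 259.5 and 265 CPM in UVA cells, against 249.6, 248 and 252 CPM in control cells (log2FC 0.07, adjusted p = 0.259). Among 28 superoxide, peroxide and glutathione enzymes 8 were lower and 4 higher. CAT, catalase, had 75.6, 77.7 and 72.7 CPM in UVA cells, against 92.4, 97.3 and 106 CPM in control cells (log2FC -0.39, standard error 0.07, adjusted p = 0.000430). SOD1 (0.28) and GLRX3 (0.29) rose and the peroxiredoxins PRDX2 (-0.23) and PRDX5 (-0.22) fell. The number of lower genes was 4 without control 2, control 3 or UVA 2, and that of higher genes 2 without UVA 2. Of 12 metallothioneins and zinc transporters SLC30A1 (log2FC 0.62, standard error 0.07, adjusted p = 5.94e-06), the zinc exporter of the cell membrane, SLC39A14 (0.34) and SLC39A6 (0.16) were higher and MT1X (-0.43), 1 of a family of similar genes, was lower, and the call of SLC39A6 was lost without control 2 or UVA 3 (adjusted p up to 0.0801).

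Cells that pass through G2 and mitosis need a set of genes that are held silent in resting cells by the DREAM complex. This complex binds the cell cycle homology region, or CHR, with the letters TTTGAA, often beside CCAAT boxes. Of 58 tested genes of G2 and mitosis 47 were lower, and 55 had a log2FC under 0, with a median of -0.24. In edgeR 0 were higher, as by DESeq2 and limma-voom and at an unadjusted p under 0.05. Promoters of 4 of them are printed here because the CHR was far more frequent in promoters of this list than in those of all tested genes. They run from 250 bases before the start of the gene to 50 after it, on the strand of the gene, and come from RefSeq for GRCh38.p14. Capitals mark every CHR match on either strand, so that TTCAAA is the reverse complement.
MKI67 (chr10:128126374-128126673, minus strand): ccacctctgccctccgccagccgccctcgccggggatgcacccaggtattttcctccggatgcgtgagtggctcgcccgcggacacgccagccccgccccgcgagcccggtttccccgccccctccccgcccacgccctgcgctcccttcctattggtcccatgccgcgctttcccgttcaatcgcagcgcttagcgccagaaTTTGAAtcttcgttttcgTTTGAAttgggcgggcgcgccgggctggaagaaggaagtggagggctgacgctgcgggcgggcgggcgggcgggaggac
INCENP (chr11:62123761-62124060, plus strand): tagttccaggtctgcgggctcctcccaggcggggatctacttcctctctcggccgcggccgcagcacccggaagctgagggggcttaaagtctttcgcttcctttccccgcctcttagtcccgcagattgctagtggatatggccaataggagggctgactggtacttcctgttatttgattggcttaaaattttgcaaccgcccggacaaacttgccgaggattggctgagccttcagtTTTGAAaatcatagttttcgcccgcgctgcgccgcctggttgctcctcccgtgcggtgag
ANLN (chr7:36389612-36389911, plus strand): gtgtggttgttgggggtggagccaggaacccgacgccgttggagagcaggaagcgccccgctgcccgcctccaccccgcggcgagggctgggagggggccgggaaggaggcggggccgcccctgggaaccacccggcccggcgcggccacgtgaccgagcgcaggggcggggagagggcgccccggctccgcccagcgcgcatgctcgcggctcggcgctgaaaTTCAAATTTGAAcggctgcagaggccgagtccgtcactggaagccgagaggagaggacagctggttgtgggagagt
CDK1 (chr10:60778081-60778380, plus strand): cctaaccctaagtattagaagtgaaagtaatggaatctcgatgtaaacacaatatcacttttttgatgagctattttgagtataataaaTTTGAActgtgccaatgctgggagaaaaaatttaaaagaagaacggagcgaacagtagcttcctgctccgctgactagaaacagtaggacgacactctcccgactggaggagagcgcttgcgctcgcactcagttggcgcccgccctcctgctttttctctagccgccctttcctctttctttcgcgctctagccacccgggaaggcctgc

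MKI67, a coat of mitotic chromosomes and the usual marker of proliferation, had 838, 825 and 825 CPM in UVA cells, against 1105, 1151 and 1187 CPM in control cells (log2FC -0.47, standard error 0.04, adjusted p = 1.95e-07). INCENP, which places the kinase AURKB on chromosomes, had 90.7, 82.3 and 84.3 CPM in UVA cells, against 129, 132 and 126 CPM in control cells (log2FC -0.59, standard error 0.05, adjusted p = 2.57e-07). CDK1, the kinase that starts mitosis, had 188, 197 and 184 CPM in UVA cells, against 249.6, 261 and 268 CPM in control cells (log2FC -0.45, standard error 0.05, adjusted p = 2.52e-06). The falls were moderate, but for the 3 genes the UVA libraries lay close together and below every control library. TOP2A, the topoisomerase of dividing cells, had 1048, 1035 and 1041 CPM in UVA cells, against 1484, 1634 and 1750.0 CPM in control cells (log2FC -0.64, standard error 0.05, adjusted p = 1.00e-06), and ANLN, a scaffold of the dividing cell's furrow, fell by 0.38. The number of lower genes was 36 to 46 when any 1 library was left out, and the medians of the list were -0.26 to -0.22 in UVA libraries and -0.04 to 0.02 in control libraries.

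A promoter of this length was given for 10915 of the tested genes. The CHR was found in 10.2% of them, in 14.3% of those of genes lower after UVA and in 34 of 50 promoters of the mitosis list. A CCAAT box (CCAAT, either strand) was found in 37.0% of all promoters and in 72.0% of those of the mitosis list. Of the promoters with both, 478 genes, 103 were lower (21.5%) and 35 higher (7.32%). Outside the mitosis list there were 451 such genes, of which 80 were lower (17.7%) and 35 higher (7.76%), beside 11.7% lower and 11.2% higher among all genes with a promoter. Within the mitosis list, 30 of 34 genes with a CHR and 11 of 16 without it were lower. A match is a description of letters and not of a bound site.

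**Figure D5:**
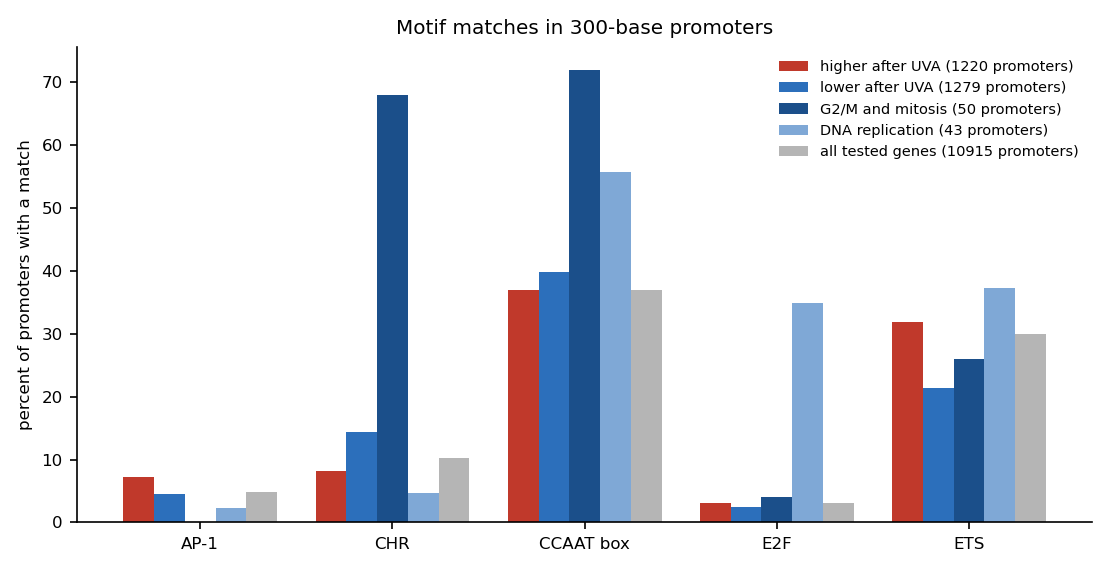
Percent of 300-base promoters with at least 1 match of a motif on either strand, for genes higher after UVA, genes lower after UVA, the G2/M and mitosis list, the DNA replication list and all tested genes. The letters of each motif are given in the text. The mitosis list reaches 68.0% for CHR beside 10.2% of all promoters, and the DNA replication list reaches 34.9% for E2F beside 3.08%.

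Genes of DNA replication, which are set by E2F rather than by the CHR, moved less. Of 50 tested 13 were lower and 2, RFC4 (0.19) and RFC3 (0.15), named after their values were seen, were higher, with a median log2FC of -0.07. TK1, thymidine kinase, had 126, 115 and 119 CPM in UVA cells, against 142, 147 and 148 CPM in control cells (log2FC -0.28, standard error 0.05, adjusted p = 0.000249), and TYMS, thymidylate synthase, fell by 0.26. The motif of E2F searched was TTTNGCGC. The number of lower genes was 8 without UVA 3. The higher ones were 4 without control 1, 1 without UVA 3 and none without control 3 or UVA 2 (adjusted p of RFC4 up to 0.0929 and of RFC3 up to 0.0914). Among 28 regulators of G1 and S phase 7 were higher and 5 lower: CCND1, or cyclin D1, had 826, 906 and 898 CPM in UVA cells, against 730.0, 673 and 591 CPM in control cells (log2FC 0.40, standard error 0.08, adjusted p = 0.00963), CDK6, its kinase partner, rose by 0.44 and E2F3 by 0.36 on the log2 scale, and the inhibitor CDKN2C (-0.78) and RB1 (-0.33) were lower. Without control 3 the lower genes were 3. Of 20 tested histone genes 6 were lower, among them H2BC5 (-0.59) and H2AZ2 (-0.24), and 1 was higher, or 2 without control 1 or with scaling by library size only. Histone mRNA of the replicating kind has no poly(A) tail, and capture on oligo(dT) recovers it only in part.

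The motif of AP-1, TGANTCA, was looked at in the same way because FOSL1, ATF3 and other members were higher. It was found in 4.83% of all promoters, in 7.30% of those of higher genes and in 4.53% of those of lower genes. Of genes higher by more than 2-fold 9 of 64 promoters had it, and of genes lower by more than 2-fold 5 of 75. IL1A, the third largest rise of the well expressed genes, is shown with its 2 matches in capitals, upstream and downstream of its start.
IL1A (chr2:112784444-112784743, minus strand): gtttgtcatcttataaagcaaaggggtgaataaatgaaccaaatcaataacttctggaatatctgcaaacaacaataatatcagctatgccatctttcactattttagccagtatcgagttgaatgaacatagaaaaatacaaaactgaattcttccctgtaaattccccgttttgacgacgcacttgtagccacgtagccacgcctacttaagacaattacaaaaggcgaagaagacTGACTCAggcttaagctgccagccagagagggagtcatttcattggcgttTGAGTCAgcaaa
The motif of ETS factors, CCGGAA, was found in 31.9% of promoters of higher genes and 21.3% of those of lower genes, beside 30.0% of all. It was found in 68.8% of promoters of aminoacyl-tRNA synthetases, but also in 54.4% of those of cytosolic ribosomal proteins, 54.3% of the nuclear respiratory chain and 56.5% of ER-associated degradation, lists with few or no higher genes. In genes higher by more than 2-fold and in the feedback genes of ERK it was rarer than in all promoters, at 14.1% and 14.3% (2 of 14). It was rarer still in genes lower by more than 2-fold, with 3 of 75 promoters (4.0%).

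DNA damage by UVA is mostly oxidative. Of 63 tested genes of DNA repair 5 were higher and 9 lower, shares near those of all genes. APEX1, the enzyme that cuts DNA at lost bases, had 187, 182 and 181 CPM in UVA cells, against 169.6, 162 and 147 CPM in control cells (log2FC 0.20, standard error 0.05, adjusted p = 0.00644), and DDB2, which finds ultraviolet lesions, had 43.1, 41.7 and 40.2 CPM in UVA cells, against 51.9, 53.4 and 57.9 CPM in control cells (log2FC -0.38, standard error 0.06, adjusted p = 0.000246). FANCI (-0.22) and FANCD2 (-0.27), partners in the repair of crosslinks, were lower. The number of higher genes was 1 without UVA 2, 2 without control 3 and 3 without control 2 or UVA 3 or by limma-voom.

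HaCaT cells carry mutant p53, and of 28 genes known as its targets 9 were higher and 6 lower. TNFRSF10B, a receptor of TRAIL and also a target of CHOP, had 69.8, 73.96 and 80.1 CPM in UVA cells, against 57.2, 54.6 and 49.6 CPM in control cells (log2FC 0.47, standard error 0.06, adjusted p = 4.49e-05), and GADD45A rose by 0.44 and PMAIP1, or NOXA, by 0.39 on the log2 scale. DDB2 and BTG2 were among the lower targets, and these were 3 without control 3. Of 36 members of the BCL2 family, caspases and their regulators 7 were higher and 6 lower. BCL2L1, or BCL-XL, which protects from apoptosis, rose by 0.25, and APAF1, the core of the apoptosome, fell by 0.34. BAX (log2FC 0.11, adjusted p = 0.378), BCL2 (0.34, adjusted p = 0.306), CASP9 (0.01, adjusted p = 0.983) and MAPK8, which encodes JNK1 (0.03, adjusted p = 0.810), did not pass the test. The numbers were 4 higher and 1 lower without control 2, and 2 to 3 lower without control 3 or any single UVA library, and 3 were lower by limma-voom.

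Keratins are the filaments that give keratinocytes their strength, and KRT5 and KRT14 are the pair of the basal layer. Of 14 tested 8 were lower and 2 higher, with a median log2FC of -0.43. KRT5 had 1549, 1348 and 1456 CPM in UVA cells, against 1921, 2250.0 and 2411 CPM in control cells (log2FC -0.60, standard error 0.08, adjusted p = 0.00172). KRT14 had 732, 647 and 737 CPM in UVA cells, against 871, 932 and 972 CPM in control cells (log2FC -0.39, standard error 0.05, adjusted p = 5.17e-05). Every UVA library lay below every control library for both, and UVA 2 had the lowest level of each. KRT13, typical of mucosa and abundant in these cells, had 175, 130.2 and 172 CPM in UVA cells, against 259, 406 and 520.0 CPM in control cells (log2FC -1.31, standard error 0.28, adjusted p = 0.0194), and the call was lost without control 2, control 3, UVA 2 or UVA 3 and in a fit of the UVA and control libraries alone (adjusted p up to 0.0728 without a library). KRT4, its partner, had 13.6, 11.8 and 14.9 CPM in UVA cells, against 22.4, 33.3 and 46.7 CPM in control cells (log2FC -1.34, standard error 0.30, adjusted p = 0.0228), and the call was lost without control 2 or any single UVA library and in a fit of the UVA and control libraries alone (adjusted p up to 0.0821 without a library). KRT19 (-0.51) and KRT17 (-0.43) were lower as well. The higher genes were KRT80 (0.60) and, named after its value was seen, KRT18 (0.65), a keratin of simple epithelia. The lower keratins were 4 without control 2 or control 3, 3 without UVA 2, and 5 without UVA 3. The higher keratins were 4 by DESeq2, by limma-voom or with at least 10 counts in each library, 4 at an unadjusted p under 0.05, 1 without UVA 2 and none without control 2 or UVA 3. The call of KRT17 was lost without control 3 or UVA 2 (adjusted p up to 0.0538), that of KRT80 was lost without control 2 or UVA 3 (adjusted p up to 0.0569) and that of KRT18 was lost without control 2, UVA 2 or UVA 3 (adjusted p up to 0.0607). Of the 22 keratinocyte markers, a list that holds several of these keratins, 14 were lower and 3 higher, the lower ones being 9 without control 3 and 8 without UVA 2.

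The junctions that anchor keratins were divided. Of 24 tested genes 9 were lower and 6 higher. DSP, the desmosomal plaque protein, had 849.7, 829.7 and 844 CPM in UVA cells, against 955, 1019 and 1049 CPM in control cells (log2FC -0.26, standard error 0.04, adjusted p = 9.45e-05), and PKP1 fell by 0.34. The genes that rose included LAMA3 (log2FC 0.55, standard error 0.08, adjusted p = 0.00176), a chain of the laminin beneath basal cells, ITGA2 (0.27), a collagen receptor, and COL17A1 (0.17) of the hemidesmosome. CDH1, or E-cadherin, fell by 0.27.

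Notch signalling pushes keratinocytes to leave the basal layer, and p63 keeps them there. Of 22 genes of this system 6 were lower and 1 was higher. NOTCH3 had 3.83, 2.37 and 2.86 CPM in UVA cells, against 5.35, 6.82 and 8.11 CPM in control cells (log2FC -1.15, standard error 0.21, adjusted p = 0.000657). NOTCH1 had 103, 82.97 and 89.5 CPM in UVA cells, against 123, 153 and 156 CPM in control cells (log2FC -0.65, standard error 0.11, adjusted p = 0.00541). JAG2, a ligand, fell by 0.57 and TP73, a relative of p63, by 1.19 on the log2 scale, while NOTCH2 rose by 0.30. For NOTCH1 and NOTCH3 the groups were apart, and control 1 was the lowest control library for both. IVL, involucrin, a part of the cornified envelope and an early sign of differentiation, had 5.11, 4.81 and 4.14 CPM in UVA cells, against 9.31, 10.9 and 11.2 CPM in control cells (log2FC -1.16, standard error 0.18, adjusted p = 0.000216). S100A7 (log2FC 1.33, standard error 0.27, adjusted p = 0.00148), an antimicrobial protein of inflamed skin, and FLG, filaggrin (log2FC 0.71, standard error 0.09, adjusted p = 6.86e-05), were higher, in a list of 22 genes with 6 higher and 4 lower. The retinoid genes CRABP2, which carries retinoic acid (log2FC -1.36, standard error 0.31, adjusted p = 0.0263), RARB (-1.08), RARG (-0.33) and RXRA (-0.45) were the lower ones of 16 genes of vitamin D, retinoid and steroid response, and the call of CRABP2 was lost without control 2, control 3 or any single UVA library and in a fit of the UVA and control libraries alone (adjusted p up to 0.0832 without a library).

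Other receptors and regulators stood among the largest falls. FGFR3, an FGF receptor, had 9.17, 7.06 and 9.26 CPM in UVA cells, against 16.8, 25.4 and 31.3 CPM in control cells (log2FC -1.52, standard error 0.30, adjusted p = 0.0120). VAV3, an exchange factor of small GTPases, had 7.22, 5.84 and 7.11 CPM in UVA cells, against 19.4, 22.3 and 35.1 CPM in control cells (log2FC -1.92, standard error 0.31, adjusted p = 0.00536). MAP2K6, the kinase above p38, had 7.89, 4.81 and 6.39 CPM in UVA cells, against 13.8, 15.8 and 17.6 CPM in control cells (log2FC -1.30, standard error 0.17, adjusted p = 6.69e-05). For each of the 3 the highest UVA library stayed under the lowest control library, as the rule for choosing the largest falls required. OLFM4, a secreted glycoprotein, had the largest fall of the well expressed genes detected in both groups, with 3.17, 0.791 and 1.99 CPM in UVA cells, against 7.46, 11.03 and 21.3 CPM in control cells (log2FC -2.71, standard error 0.60, adjusted p = 0.0212), and the call was lost without UVA 2 or UVA 3 and in a fit of the UVA and control libraries alone (adjusted p up to 0.0796 without a library). TMT1A, a thiol methyltransferase, had 2.83, 3.04 and 2.51 CPM in UVA cells, against 7.92, 9.19 and 11.8 CPM in control cells (log2FC -1.78, standard error 0.28, adjusted p = 0.000657).

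Matrix metalloproteinases break down the dermal matrix in photoaged skin, mostly as products of fibroblasts. Of 25 genes for them, their inhibitors and the plasminogen system 6 were higher and 7 lower. MMP7 (0.68) and ADAM8 (log2FC 0.81, standard error 0.11, adjusted p = 8.60e-05) rose and MMP14 (-0.22) and SERPINB5, or maspin (log2FC -0.40, standard error 0.05, adjusted p = 1.03e-05), fell. COL3A1, a fibroblast collagen, was at a trace level (0.500, 0.304 and 0.358 CPM in UVA cells, against 0.926, 0.919 and 1.53 CPM in control cells). CD68, a lysosomal protein abundant in macrophages, had 13.4, 17.9 and 17.1 CPM in UVA cells, against 8.44, 10.4 and 9.23 CPM in control cells (log2FC 0.79, standard error 0.12, adjusted p = 0.000115). Of the 11 macrophage genes CD68 was the only 1 that passed the filter on low counts, and FCGR3A, AIF1 and MRC1 were at 0 in all UVA and control libraries.

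The respiratory chain of mitochondria makes most of the ATP of many cells. Of its 45 tested nuclear genes 13 were lower and 41 had a log2FC under 0, with a median of -0.10, and 0 were higher by edgeR, DESeq2 or limma-voom, with 1 higher at an unadjusted p under 0.05 and 1 by edgeR in a fit of the UVA and control libraries alone. SDHA, a subunit of complex II, had 147, 131 and 135 CPM in UVA cells, against 155, 163 and 166 CPM in control cells (log2FC -0.23, standard error 0.05, adjusted p = 0.00189). The number of lower genes was 4 without control 2, 5 without UVA 3 and 8 without UVA 2. Of 15 mitochondrially encoded RNAs COX3 (log2FC -0.18, standard error 0.04, adjusted p = 0.00427), ATP6 (-0.16) and ATP8 (-0.24) were lower, 0 were higher by edgeR, DESeq2 or limma-voom or at an unadjusted p under 0.05, and the lower ones were 7 without control 1 and 5 with no filter on low counts. The call of ATP8 was lost without control 2, control 3 or any single UVA library and in a fit of the UVA and control libraries alone (adjusted p up to 0.125 without a library). These RNAs together took 5.10 to 5.13% of the counts in UVA cells and 5.11 to 5.61% in control cells.

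SCD, a fatty acid desaturase and one of the most abundant mRNAs, had 5493, 5135 and 5092 CPM in UVA cells, against 6223, 6460.0 and 7061 CPM in control cells (log2FC -0.33, standard error 0.07, adjusted p = 0.0131), and the call was lost without UVA 2 (adjusted p up to 0.0723). It was 1 of 6 lower genes of 22 for fatty acid synthesis, a number that was 0 without UVA 2, 1 without control 3, 2 without UVA 3 and 3 without control 2 or UVA 1 or with scaling by library size only. Of 32 genes of cholesterol synthesis and uptake 6 were lower, 3 without UVA 2, and HMGCS1 (0.36), named after its value was seen, was higher, a call lost without control 2, control 3 or any single UVA library and in a fit of the UVA and control libraries alone (adjusted p up to 0.144 without a library). The higher genes of this list were 4 without control 1, 3 with scaling by library size only, and 2 with RLE scaling, with either other filter on low counts or at equal depth. ABCA1, the cholesterol exporter, had 1.83, 1.03 and 1.02 CPM in UVA cells, against 3.29, 3.68 and 3.70 CPM in control cells (log2FC -1.45, standard error 0.28, adjusted p = 0.000880). HK2, the inducible hexokinase, had 62.2, 64.2 and 64.3 CPM in UVA cells, against 46.5, 43.5 and 36.2 CPM in control cells (log2FC 0.59, standard error 0.08, adjusted p = 0.000243), while HK1 had 119, 114 and 114 CPM in UVA cells, against 143, 149 and 165 CPM in control cells (log2FC -0.40, standard error 0.05, adjusted p = 2.24e-05), in a list of 20 glycolytic genes with 5 higher and 4 lower, the higher ones being 3 without control 3.

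Lysosomes held 13 lower and 2 higher genes of 44, with CD68 among the higher ones. Only 1 gene was higher when any 1 library was left out, by DESeq2 and with no filter on low counts. SMPD1, acid sphingomyelinase, had 3.28, 3.71 and 3.12 CPM in UVA cells, against 5.92, 5.84 and 6.35 CPM in control cells (log2FC -0.84, standard error 0.17, adjusted p = 0.00135), and the cathepsins CTSB (-0.26) and CTSH (-0.37) and the proton pump subunit ATP6V1A (-0.34) fell. The lower genes were 8 without control 2 or UVA 2. The aryl hydrocarbon receptor senses tryptophan photoproducts. Of 10 tested genes for it, its partner and its targets, ARNT (-0.39), the partner, and CYP2S1 (-0.34) were lower. The share called in either direction was near the 21.1% of all tested genes. The call of CYP2S1 was lost without control 2, control 3, UVA 1 or UVA 2 and by limma-voom (adjusted p up to 0.220 without a library). CYP1A1 had 18.3, 15.2 and 15.4 CPM in UVA cells, against 8.80, 6.33 and 10.1 CPM in control cells (log2FC 0.96, adjusted p = 0.103) and CYP1B1 30.2, 31.5 and 30.3 CPM in UVA cells, against 20.2, 17.9 and 22.8 CPM in control cells (0.60, adjusted p = 0.184). Of the list 0 were higher by edgeR in the fit of all 9 libraries, with 2 at an unadjusted p under 0.05. In a fit of the UVA and control libraries alone edgeR called both CYP1A1 and CYP1B1 higher, and DESeq2 and limma-voom called 1 gene each, CYP1A1.

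Actin and its partners of the serum response were partly higher, 7 of 26, with 4 lower. VCL (0.29) and MYH9 (0.25), which tie actin to adhesions or move it, rose, and CNN3 (-0.48) fell. MICAL2, which oxidizes nuclear actin and so frees the cofactor of serum response factor, had 89.8, 88.3 and 88.7 CPM in UVA cells, against 60.8, 56.5 and 50.5 CPM in control cells (log2FC 0.67, standard error 0.06, adjusted p = 5.22e-07). Lower actin genes were 2 without control 1, control 3 or UVA 1 or with no filter on low counts, and 1 without control 2, UVA 2 or UVA 3. RHOBTB3 (log2FC -0.45, standard error 0.04, adjusted p = 2.57e-07) was lower and FAM107B (log2FC 0.80, standard error 0.06, adjusted p = 1.95e-07) and LRATD2 (log2FC 0.47, standard error 0.04, adjusted p = 2.85e-07) were higher, with adjusted p among the 10 smallest of all genes.

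Long noncoding RNAs were called less often than protein-coding genes and mostly upwards. Of 1256 tested 97 were higher (7.72%) and 36 lower (2.87%), with a median log2FC of 0.07, while of 12038 protein-coding genes 1380 were higher (11.5%) and 1501 lower (12.5%). The classes were not compared at matched abundance. SLC7A11-AS1, named as antisense to SLC7A11, had 5.33, 7.61 and 6.75 CPM in UVA cells, against 2.78, 4.49 and 3.11 CPM in control cells (log2FC 0.92, standard error 0.20, adjusted p = 0.00223). VPS9D1-AS1 had 5.50, 5.42 and 4.60 CPM in UVA cells, against 3.19, 2.00 and 2.76 CPM in control cells (log2FC 0.96, standard error 0.22, adjusted p = 0.00357). The strand of counting is not given in the sources used here, so reads of these RNAs and of the genes they overlap may not be separated. TP53TG1, an intergenic RNA, was lower, with 12.9, 9.80 and 10.7 CPM in UVA cells, against 14.2, 16.9 and 22.1 CPM in control cells (log2FC -0.67, standard error 0.15, adjusted p = 0.00568). By the GC content of the transcripts, in 5 classes of equal size, 6.85% of genes in the highest class were higher and 11.5% lower, and in the lowest class 13.0% were higher and 11.2% lower.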

How the data were processed

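RNA of the HaCaT libraries was captured on oligo(dT) beads and sequenced on an Illumina instrument. The authors deposited a table of whole-number counts per gene, not normalized. The submitters' notes name bcl2fastq, fastp 0.23.2 and GRCh38. For the aligner, the program and annotation of counting and its strand, nothing is given in the sources used here. Each column was assigned by its label, with 0 columns left out.

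Genes were kept by filterByExpr and scaled by TMM. All 9 libraries entered 1 fit in edgeR 4.0.16 (R 4.3.3), and UVA was tested against control with the quasi-likelihood F test and Benjamini-Hochberg adjustment. The threshold was an adjusted p under 0.05, and the standard error is the size of the log2 fold change over the root of F. For its sequencing data the paper states limits of fold and p without naming the test behind them. The common biological coefficient of variation was 0.0584. The procedure was tested on simulated data of this comparison with 50 changed genes per fold among 14932 genes: 40, 76, 78 and 98% of genes changed 1.25-, 1.5-, 2- and 4-fold were recovered, with 16 false calls. The changed genes were not drawn from the least abundant ones, and were a far smaller share than the genes called in the data. The simulated control libraries had no order among them as the real ones did. Recovery and false calls in the data may therefore differ.

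The comparison, the gene lists and the rule for naming genes were chosen with earlier results of these data known, so lists are described by counts and medians without a test. Genes named were the 15 largest rises and falls at a mean log2 CPM from 2 upwards whose groups did not overlap, the 10 smallest adjusted p, the 10 most abundant genes, the 3 largest rises and falls of noncoding RNAs, the 5 smallest adjusted p of each list and genes whose products the paper assayed. Not all are printed, and others are marked. Results of some genes are not reported here. Promoters (250 bases before to 50 after the start) and names came from RefSeq, GRCh38.p14, and gene types and GC content from GENCODE, which matched 13805 of 15154 genes. Motifs were searched on both strands.

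Alternatives were DESeq2 1.42.0, limma-voom (limma 3.58.1), RLE or library-size scaling, no filter or at least 10 counts in each library, the 6 libraries alone, a block for the replicate number, the omission of each library, an adjusted p under 0.01 and equal depth.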

Additional observations from a re-analysis of the deposited data

How the results depend on the processing

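The number of changed genes, 1592 higher and 1610 lower, was within 1.5 times of these values by DESeq2, limma-voom, RLE scaling, scaling by library size, either filter on low counts, a fit of the 6 libraries alone and thinning to equal depth, with 2934 to 3369 genes in all. When 1 library was left out, 1053 to 1700 genes were higher and 1071 to 1669 lower. The lowest of these came without UVA 3 for higher genes and without control 3 for lower genes, and the cause was not tested. At an adjusted p under 0.01 the numbers were 852 and 876. Judged by the paper's limits instead (more than 2-fold and p under 0.05 before adjustment), 148 genes rose and 186 fell. Without a filter on low counts they were 380 and 427, and with at least 10 counts in each library 59 and 78, which follows from the number of rare genes tested. The paper reports far more changed genes for this comparison than were found here with both of its limits applied. The cause of the difference was not tested. With p under 0.05 before adjustment and no limit of fold, 2541 genes rose and 2510 fell. Every gene called both here and under an alternative had the same direction in both. Of 262 called genes chosen for naming, 219 kept their call without any of the 6 libraries in turn. Most of them were chosen by the size of the change or a small adjusted p, which favours keeping a call. Among all 538 called list genes, 338 kept their call in this way and 200 lost it at least once.

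Control and UVA libraries share replicate numbers, but the residuals of libraries with the same number had correlations of only -0.01, -0.02 and 0.03. The sources do not say whether libraries with the same number were handled together. A correlation over all genes cannot decide this, as it may miss a shared effect on some genes. With the replicate number as a block, 2802 genes were called, 1379 higher and 1423 lower, 2755 of them shared with the 3202, and 5 keratins were lower in place of 8.

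Depth limits the rare genes most: in the lowest of 5 abundance classes 2.51% were called higher and 2.38% lower. In simulated data 40% of genes changed 1.25-fold were recovered, so genes not called may still have changed by such amounts.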

Other observations

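Targets of the hypoxia factors were split, with 5 of 24 higher and 5 lower. EPAS1, which encodes HIF-2alpha, was lower in every UVA library than in any control library (log2FC -0.64, standard error 0.08, adjusted p = 0.000259), and EGLN1, the oxygen sensor that marks these factors for degradation, had 44.7, 48.3 and 47.04 CPM in UVA cells, against 35.2, 36.6 and 40.02 CPM in control cells (log2FC 0.33, standard error 0.06, adjusted p = 0.00115). The glycolytic regulator PFKFB3 was lower (-0.33) and MXI1, an antagonist of MYC, higher (0.48). The lower genes were 3 without control 3. Of 18 circadian clock genes NR1D2 (0.36), CSNK1E (0.30), PER1 (0.34) and CIART (0.42) were higher and CSNK1D (-0.13) lower. The call of PER1 was lost without control 2, UVA 1 or UVA 3 (adjusted p up to 0.0935), that of CIART was lost without control 1, control 2, control 3, UVA 1 or UVA 3, and also by DESeq2, with no filter on low counts and at equal depth (adjusted p up to 0.0968 without a library) and that of CSNK1D was lost without control 2, control 3 or any single UVA library, and also with scaling by library size only, by DESeq2, by limma-voom, with no filter on low counts and at equal depth (adjusted p up to 0.194 without a library). The higher clock genes were 2 without control 2 or UVA 3, and the lower ones 2 without control 1. Among 36 chromatin regulators 6 were lower and 3 higher, with KDM1A, a histone demethylase, at 196, 183 and 207 CPM in UVA cells, against 252, 265 and 295 CPM in control cells (log2FC -0.47, standard error 0.06, adjusted p = 9.45e-05), and the higher ones were 5 without control 1 and 1 without control 2, control 3 or UVA 2. Of 30 autophagy genes 3 were higher and 2 lower, with 1 higher without control 3 or UVA 2 and 1 lower without control 2, control 3 or UVA 3. MAP1LC3A was low and uneven, with 1.33, 0.791 and 0.460 CPM in UVA cells, against 0.309, 0.270 and 0.353 CPM in control cells, and the call was lost without control 1, control 2, control 3, UVA 1 or UVA 2, and also by limma-voom and with no filter on low counts (adjusted p up to 0.273 without a library).

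A few genes had counts in every library of a group and 0 in every library of another. ENSG00000287856, for which no symbol was found in the tables used, had 0 counts in UVA 1, 2 and 3, against 126, 119 and 110 counts in control 1, 2 and 3, which makes it at least 116-fold lower in UVA cells with a floor of 3 counts over the group. In the cells given UVA and CT it had 147, 80 and 103 counts. ENSG00000269693 had 14, 20 and 14 counts in UVA cells and 0 in all control libraries and all libraries with CT. Among the near-identical F8A genes, F8A3 had 130, 65 and 99 counts in UVA cells and 109, 64 and 75 in control cells and 0 in all libraries with CT, where F8A2 had 105, 95 and 97 counts and 0 elsewhere. F8A1 had 107, 150 and 170 counts in UVA cells and 147, 130 and 143 in control cells. The assignment of reads between similar genes is not described in the sources used here, and its part in these zeros was not tested.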
